A study of Mus musculus with 60 samples.

Results

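Whole blood of 6 mice given BIO 300 and total-body irradiation (TBI) was compared with whole blood of 6 unirradiated mice given vehicle, all bled on Day 1. The 12 mice were taken by their group labels and animal numbers (55 to 60 and 25 to 30) from the 60 mice of the study, which received vehicle or 1 of 3 doses of BIO 300 and were bled on Day 0 or Day 1. Only vehicle mice and high-dose mice of Day 1 were also irradiated. BIO 300 is an oral powder in which synthetic genistein, a soy isoflavone, is held in an amorphous solid dispersion, and the study looked in the blood transcriptome, with and without TBI, for biomarkers of use in setting a human dose. The animals were male CD2F1 mice, bought at 5 to 6 weeks of age and housed 3 per cage. The group labelled BIO300-High TBI Day1 received 200 mg of genistein per kg by mouth in each of 12 doses over 6 days, was exposed to 9.2 Gy of gamma radiation, and was bled 24 h after exposure and 48 h after its last dose. The group labelled Vehicle Day1 received the carrier (water with methylcellulose and polyvinylpyrrolidone) on the same schedule, was not irradiated, and was bled at the same time after its last dose. Each library was 1 terminal bleed from the inferior vena cava of 1 mouse. The main comparison changes drug and irradiation together, so their shares in a difference cannot be told apart within it. For that reason the irradiated BIO 300 mice were also compared directly with the 6 irradiated vehicle mice (Vehicle TBI Day1) and with the 6 unirradiated BIO 300 mice (BIO300-High Day1) of the same day and dose.

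Ionizing radiation breaks DNA. The break is sensed by kinases such as ATM, which stabilize the transcription factor p53, and p53 in turn switches on genes for cell cycle arrest and for cell death. Among blood cells, mature B and T lymphocytes are known to be lost within a day of exposure, while neutrophils and platelets persist longer and red cells, which have no nucleus, are little affected at first.

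The deposited values were raw read counts per gene. Total counts ranged from 22188321 to 38551640 in the 6 irradiated BIO 300 mice and from 22605827 to 32949547 in the 6 vehicle mice. Levels below are in CPM, the usual scaling of counts to library size, on the TMM scale of the 24 Day 1 mice of the 4 groups named above. TMM is a scaling that sets aside the genes with extreme differences between libraries. Its factors were 1.26 to 1.74 in the vehicle mice and 0.721 to 1.33 in the irradiated BIO 300 mice, so the choice of scale bears on every difference. Differences are log2 fold changes from edgeR's quasi-likelihood test on the 12 mice of each comparison, given with their standard error (SE) and Benjamini-Hochberg adjusted p. A gene was called differentially expressed (DEG) when its adjusted p was below 0.05 and it differed by more than 1 on the log2 scale in either direction.

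Some libraries stood apart. Mouse 57 of the irradiated BIO 300 group held 5723 CPM of the liver gene Alb (albumin), 2.01% of its counts fell on 16 hepatocyte genes, and all 14 heart muscle genes examined lay above 10 CPM in it. In any other Day 1 mouse only 1 of those 14 genes exceeded 10 CPM (Ttn, at up to 27.1 CPM). The heart genes were listed after Myl2 and Tnnt2 had been seen among the largest increases. Vehicle mouse 29 held 736 CPM of Alb, and the median of Alb was 0.471 CPM in the vehicle group and 0.829 CPM in the irradiated BIO 300 group. Results that rest on these libraries are given with and without mice 29 and 57. The samples held the markers of blood: the lowest summed levels were 89261 CPM (vehicle) and 70746 CPM (irradiated BIO 300) for 26 red cell genes, 2620 and 9952 CPM for 16 platelet genes, and 528 and 1871 CPM for 20 neutrophil genes.

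**Figure D1:**
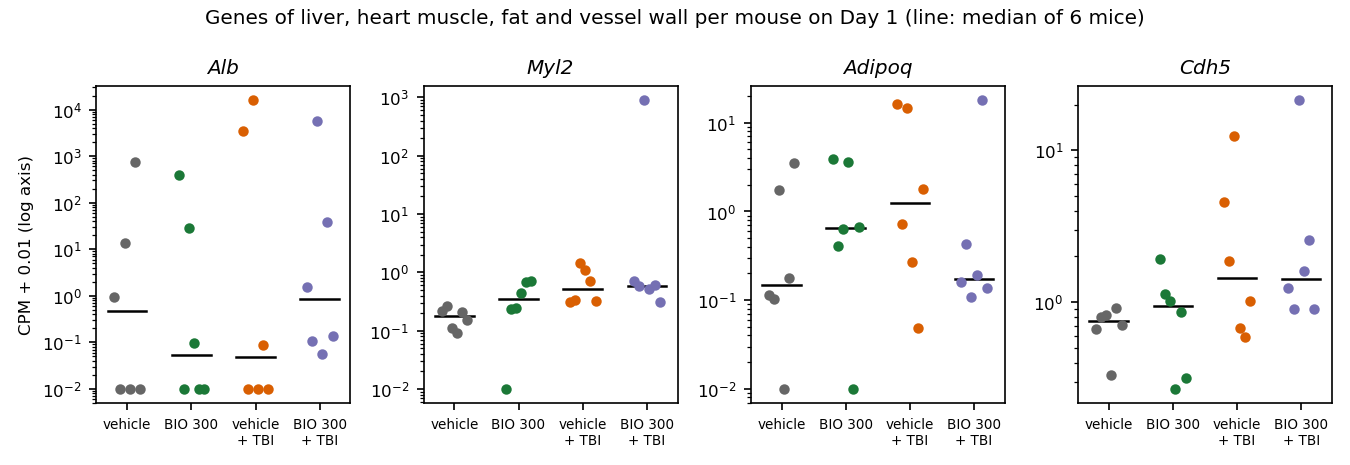
Levels of Alb (liver), Myl2 (heart muscle), Adipoq (fat) and Cdh5 (vessel wall) in CPM plus 0.01 on a log axis. Each point is 1 of 24 Day 1 mice in 4 groups of 6, and the line is the median of a group. Mouse 57 of the irradiated BIO 300 group is the highest of all mice shown for Myl2 (889 CPM) and Cdh5 (21.3 CPM). For Alb it is the highest of its own group (5723 CPM), below mouse 51 of the irradiated vehicle group (15699 CPM).

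Against unirradiated vehicle, 9277 of 25374 genes tested were DEGs (36.6%), of which 4984 were higher (19.6%) and 4293 lower (16.9%) in the irradiated BIO 300 mice. The median log2 fold change of all tested genes was 0.10. On the scale of total counts the median moved to -0.45, and 2701 genes were higher and 7019 lower, with 6968 of the 9277 DEGs kept and 0 in the opposite direction. The 2 groups did not overlap for 7068 genes (27.9%). Of the 8100 genes that averaged 10 CPM or more in either group, 2176 were higher and 1021 lower. Without mice 29 and 57 there were 10201 DEGs, 4821 higher and 5380 lower.

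**Figure D2:**
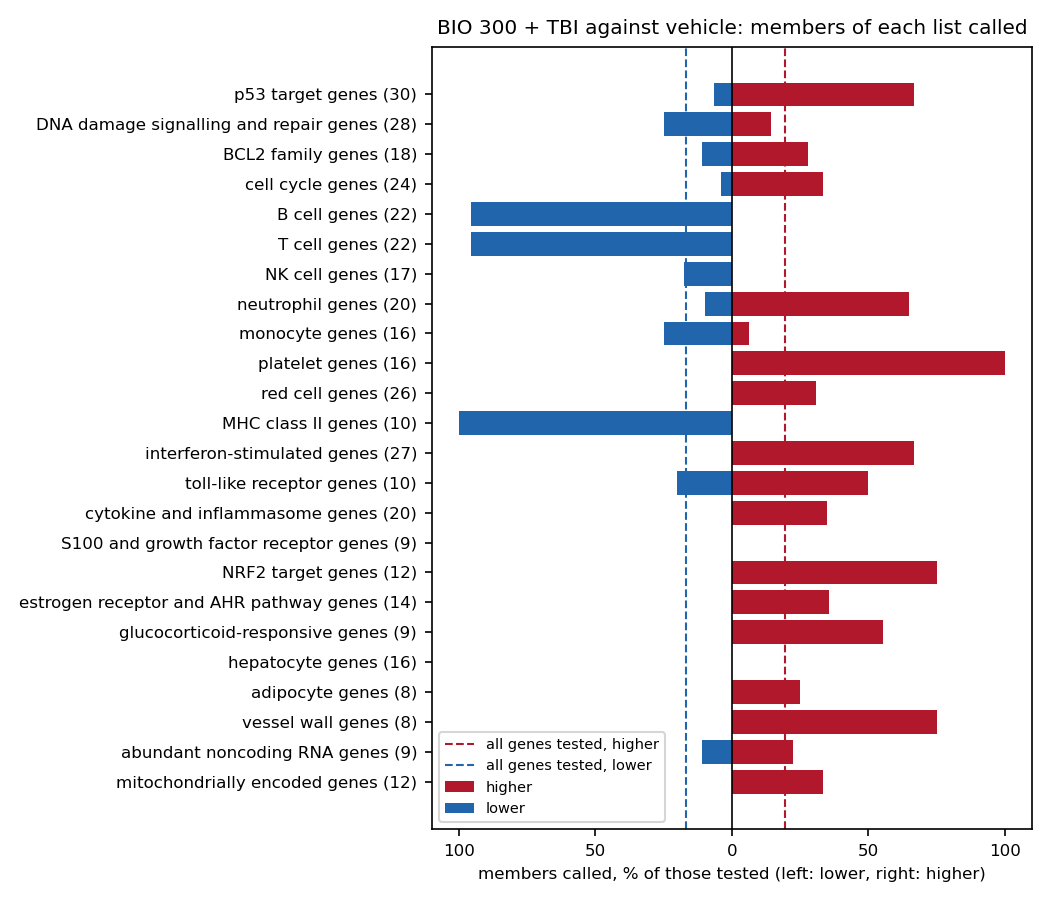
Share of the tested members of 24 gene lists that were DEGs in the irradiated BIO 300 mice against vehicle, with lower members to the left and higher members to the right, and the number tested in brackets. Dashed lines mark the shares over all genes tested (16.9% lower, 19.6% higher). All 16 platelet genes were higher and all 10 MHC class II genes lower, and 21 of 22 B cell genes and 21 of 22 T cell genes were lower.

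Genes that p53 is known to switch on were higher in the irradiated BIO 300 mice: 20 of 30 rose, 2 fell (Sesn1 and Ddb2) and 8 were not DEGs. Their median log2 fold change was 1.51, against 0.10 for all tested genes, and on total counts 14 rose and 3 fell. Cdkn1a, which encodes the cell cycle inhibitor p21, lay at 0.93, 1.64 and 2.23 CPM (lowest, median and highest) in vehicle mice and at 21.2, 26.6 and 62.2 CPM in irradiated BIO 300 mice. Every treated mouse was above every vehicle mouse, by a log2 fold change of 4.25 (SE 0.29, adjusted p = 7.01e-07). The highest treated value belonged to mouse 57, and the log2 fold change without mice 29 and 57 was 4.05. The p53 feedback inhibitor Mdm2 rose by 1.25 (SE 0.10, adjusted p = 2.68e-06) from a median of 29.6 to 73.8 CPM, with no overlap. This call was lost on total counts.

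Genes for both arms of the p53 response were among those that rose. Phlda3, an inhibitor of AKT signalling, had medians of 1.8 and 40.4 CPM and rose by 4.20 (SE 0.35, adjusted p = 2.74e-06). Bbc3, the BH3-only death gene known as PUMA, lay between 5.97 and 8.19 CPM in vehicle mice and between 26.3 and 73.1 CPM in irradiated BIO 300 mice, and rose by 2.86 (SE 0.24). Bax, whose product permeabilizes the mitochondrial outer membrane, rose by 1.40 (SE 0.12), a call lost on total counts. Groups were also separate for Ccng1 (2.34), Trp53inp1 (2.05), Aen (1.83) and the death receptor gene Eda2r (5.08), each with an adjusted p of 4.33e-05 or less. Eda2r was barely detected in vehicle mice, at a median of 0.0513 CPM. Mouse 57 held the highest treated values of Ccng1 (419 CPM, the next being 227 CPM) and Eda2r (10.7 CPM, the next being 3.05 CPM).

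Promoter letters of Cdkn1a are shown because it is a p53 target that rose without overlap and carries the p53 decamer motif. The 250 bases before the RefSeq start (GRCm38.p6, chr17:29090729-29090978, plus strand) are given 5′ to 3′, with both matches to the p53 decamer in capitals.
Cdkn1a: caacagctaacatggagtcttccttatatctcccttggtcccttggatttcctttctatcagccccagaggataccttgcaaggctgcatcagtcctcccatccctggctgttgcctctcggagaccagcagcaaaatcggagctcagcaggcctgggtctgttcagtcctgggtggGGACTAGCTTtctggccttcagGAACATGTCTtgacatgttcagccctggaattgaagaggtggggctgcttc
The decamer motif was sought on both strands in the 250 bases before each RefSeq start. It was present in 10 of the 23 p53 target genes that matched a RefSeq promoter (43.5%), in 8.20% of all 27025 genes and in 3 of 20 interferon-stimulated genes. Of the 10 targets with a match 8 were DEGs, among them Sesn1, which fell (-1.03). Of the 13 without a match 9 were DEGs, all higher. A match of letters is a description and not a binding site.

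Genes of DNA damage signalling and repair moved in both directions. Of 28 tested, 7 fell (25.0%) and 4 rose (14.3%, Chek1, Chek2, Fancd2 and Rad52). The median of the list was -0.67 (2 rose and 15 fell on total counts). Over all genes tested 16.9% fell and 19.6% rose. The kinase gene Atm fell from a median of 34.9 to 8.96 CPM (log2 fold change -1.74, SE 0.18, adjusted p = 1.08e-05), and Trp53, the transcript of p53 itself, from 27.1 to 10.1 CPM (-1.49, SE 0.13). Parp1, a sensor of strand breaks, fell by 2.74 (SE 0.35). Its lowest vehicle value was 32.3 CPM and its highest treated value 19.2 CPM, in mouse 57. Prkdc, the catalytic kinase of end joining, had medians of 27.2 and 24.3 CPM and a log2 fold change of -0.21 (SE 0.15, adjusted p = 0.249). In the BCL2 family 5 of 18 rose (27.8%, Bax, Bbc3, Pmaip1, Bcl2l11 and Bid). A further 2 fell (11.1%, Bmf and Bcl2a1d, which shares reads with its near copies). The family median of 0.64 became 0.00 on total counts. The survival genes Bcl2 and Mcl1 had log2 fold changes of -0.53 (adjusted p = 0.0533) and 0.78 (adjusted p = 0.00696), and neither was a DEG.

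Cell cycle genes depended on the scale. With TMM, 8 of 24 rose (33.3%) and 1 fell (4.17%, Mcm5), with a median of 0.71. Over all genes tested 19.6% rose and 16.9% fell. On total counts 0 rose and 4 fell, with a median of -0.02, while 2701 of all 25374 genes rose and 7019 fell. The proliferation marker Mki67 lay at 109 to 278 CPM in vehicle mice (median 162) and at 266 to 795 CPM in irradiated BIO 300 mice (median 552). The groups overlapped slightly, and the log2 fold change of 1.60 (SE 0.34, adjusted p = 0.00183) was lost on total counts. The helicase subunit gene Mcm5 fell by 1.17 (SE 0.25) with no overlap.

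B cell genes were far lower. Of 22 tested 21 fell and 0 rose, with a median of -4.07, and 21 fell on total counts and without mice 29 and 57 as well. Ighd, the constant region of the IgD receptor of mature naive B cells, lay at 279, 315 and 448 CPM in vehicle mice and at 2.02, 2.71 and 5.09 CPM in irradiated BIO 300 mice. The groups were far apart, with a log2 fold change of -6.87 (SE 0.31, adjusted p = 3.64e-08). Ighm, the IgM constant region, fell less in these fits, by 3.04 (SE 0.23), from a median of 493 to 59.1 CPM. Fewer B cells and less RNA per B cell cannot be told apart in whole blood.

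The B cell identity factor Pax5 and the surface proteins of the receptor complex followed. Pax5 fell from a median of 150 to 6.29 CPM (-4.34, SE 0.23), Cd79a from 148 to 7.59 CPM (-4.17, SE 0.26) and Ms4a1, which encodes CD20, from 169 to 12.7 CPM (-3.63, SE 0.27). All 3 were separate between groups, with adjusted p of 1.27e-06 or less. The chemokine receptor Ccr6 fell by 7.05 (SE 0.69) to a median of 0.087 CPM, Fcer2a, the low-affinity IgE receptor, by 5.57 (SE 0.32) and Tnfrsf13c, the BAFF receptor, by 4.81 (SE 0.28). The exception was Ralgps2, with a log2 fold change of 0.75.

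MHC class II genes, which present antigen to CD4 T cells, fell in 10 of 10 cases with a median of -4.27, the range being -5.26 to -3.39. Ciita, the master regulator of class II transcription, fell from a median of 87.5 to 1.91 CPM (-5.26, SE 0.29, adjusted p = 1.22e-07). The class II chain H2-Ab1 lay between 250 and 385 CPM in vehicle mice and between 10.0 and 41.1 CPM in irradiated BIO 300 mice (-4.30, SE 0.32). Mouse 57 held the highest treated value, the next being 12.7 CPM. Without mice 29 and 57 the log2 fold change was -4.73. Cd74, the invariant chain, fell by 4.11 (SE 0.31).

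T cell genes fell in 21 of 22 cases, with a median of -1.93, and Lat was the exception at 0.22. Cd8a lay at 15.8, 20.4 and 24.1 CPM in vehicle mice and at 0.156, 0.492 and 1.53 CPM in irradiated BIO 300 mice, with a log2 fold change of -5.06 (SE 0.49, adjusted p = 7.38e-06) and no overlap. Cd8b1 fell by 5.86 (SE 0.45). Cd4 fell from a median of 45.7 to 13.0 CPM, by 1.93 (SE 0.29, adjusted p = 0.00015), and its highest treated value of 14.0 CPM was below the lowest vehicle value of 35.5 CPM. The CD3 chain Cd3e fell by 1.70 (SE 0.32), the naive T cell factor Tcf7 by 2.43 (SE 0.27), the receptor constant region Trac by 1.95 (SE 0.32) and the interleukin 7 receptor Il7r by 1.95 (SE 0.27), all without overlap. Mouse 57 was lowest of its group for the T cell list, at a mean log2(CPM + 1) of 2.48 against a group median of 3.71. Without mice 29 and 57 there were 20 T cell genes lower, with a median of -1.73.

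Most natural killer (NK) cell genes did not pass the test. Of 17 tested 3 fell (Klrd1, Klrk1 and Eomes), which is 17.6% against 16.9% of all genes tested, with a median of -0.30. By DESeq2 or without mice 29 and 57 there were 0 that fell, whereas 8 fell on total counts. The cytotoxic granule genes Gzma and Prf1 overlapped between groups, with medians of 49.1 and 47.5 CPM for Gzma and a log2 fold change of -0.30 (SE 0.38, adjusted p = 0.529). For Prf1 it was -0.26 (SE 0.35), for the receptor gene Ncr1 -0.32 (SE 0.36) and for Klrb1c -0.10 (SE 0.39). Some NK receptor genes are near copies and can share reads.

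**Figure D3:**
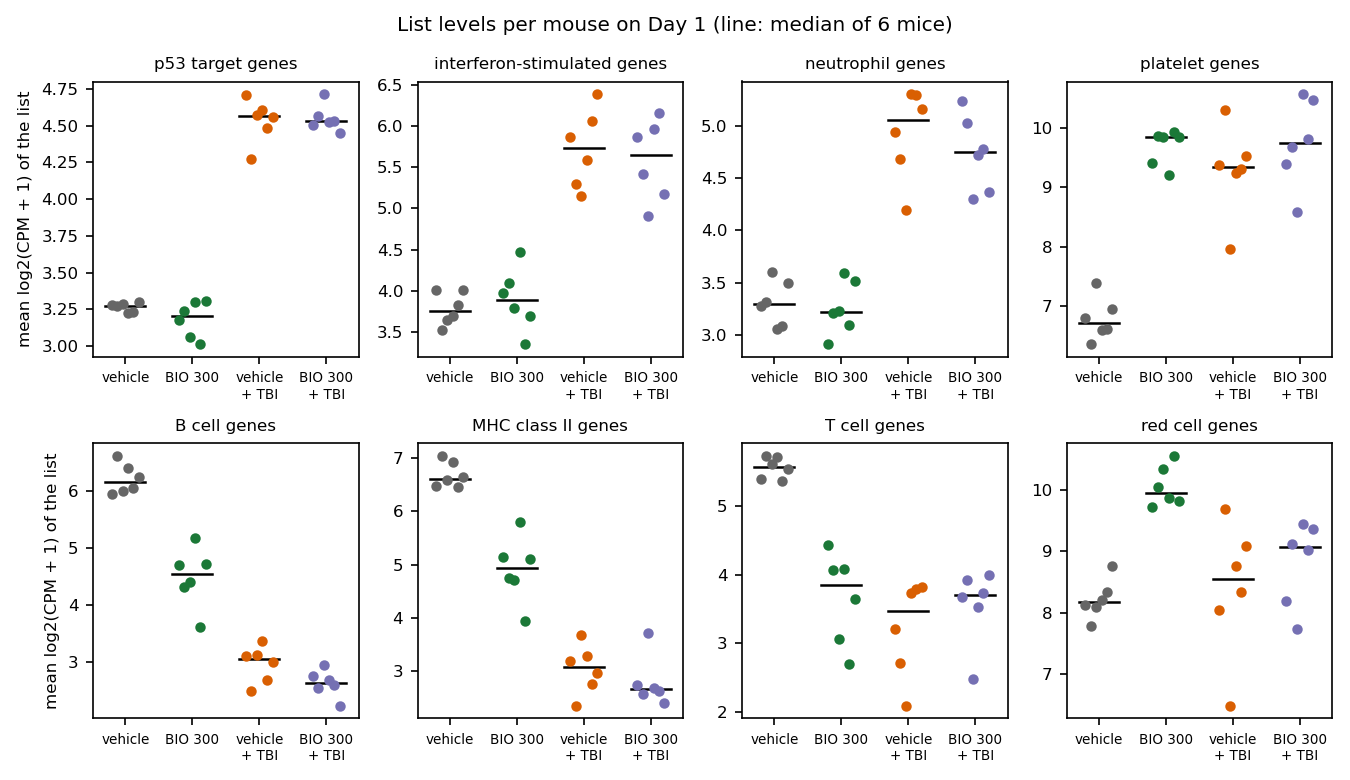
Mean log2(CPM + 1) of 8 gene lists in each of 24 Day 1 mice, in 4 groups of 6, with the group median as a line. The irradiated BIO 300 mice lay above all vehicle mice for p53 target, interferon-stimulated, neutrophil and platelet genes and below all vehicle mice for B cell, MHC class II and T cell genes, and overlapped them for red cell genes. They overlapped the irradiated vehicle mice in every panel.

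Neutrophil genes were higher. Of 20 tested 13 rose and 2 fell (Camp and Cybb), with a median of 2.36 (12 rose and 3 fell on total counts). Csf3r, the receptor for the granulocyte growth factor G-CSF, lay at 137, 188 and 272 CPM in vehicle mice and at 678, 1549 and 2749 CPM in irradiated BIO 300 mice. The lowest treated mouse was above the highest vehicle mouse, and the log2 fold change was 2.94 (SE 0.36, adjusted p = 3.02e-05). The chemokine receptor gene Cxcr2 rose by 2.94 (SE 0.34), the calprotectin genes S100a8 and S100a9 by 2.23 (SE 0.26) and 2.51 (SE 0.29), and the gelatinase gene Mmp9 by 2.72 (SE 0.31). Granule genes were mixed. Lcn2 rose by 3.19, whereas Ltf had medians of 0.825 and 0.875 CPM (-0.21, adjusted p = 0.702), and Mpo lay at or below 0.139 CPM in all 12 mice.

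Among monocyte genes 4 of 16 fell (25.0%, Ccr2, Cx3cr1, Spn and Irf8) and 1 rose (6.25%, F13a1, which platelets also express). The median of the list was -0.37 (1 rose and 8 fell on total counts). Over all genes tested 16.9% fell and 19.6% rose. The chemokine receptor Ccr2 fell from a median of 139 to 33.6 CPM, by 2.22 (SE 0.25, adjusted p = 1.78e-05), and Cx3cr1 from 17.6 to 4.04 CPM, by 2.19 (SE 0.32), both without overlap. The classical monocyte gene Ly6c2 overlapped, with a log2 fold change of -0.28 (SE 0.35). Csf1r, the receptor of the macrophage growth factor, had medians of 47.2 and 87.1 CPM and a log2 fold change of 0.81 (SE 0.18, adjusted p = 0.00231), under the size threshold.

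All 16 platelet genes rose, with no overlap between groups for any of them and a median of 3.16. The smallest change was 2.46 (Clec1b) and the largest 3.54 (Gp5), and all 16 rose on total counts. Itga2b, the fibrinogen receptor chain, lay at 176, 245 and 424 CPM in vehicle mice and at 1051, 2654 and 5453 CPM in irradiated BIO 300 mice. The log2 fold change was 3.51 (SE 0.46, adjusted p = 4.92e-05). The granule chemokines Pf4 and Ppbp rose by 2.76 (SE 0.35) and 2.68 (SE 0.43), and Gp1bb of the von Willebrand factor receptor by 3.39 (SE 0.41).

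Red cell genes were less uniform, since 8 of 26 rose and 0 fell, with a median of 0.84. On total counts 3 rose and 5 fell, with a median of 0.08, and 13 rose by DESeq2. The 8 genes included the erythroid factors Gata1, Klf1 and Nfe2 and the transferrin receptor Tfrc. Gata1 (3.38) and Nfe2 (2.69) also belong to megakaryocytes, the parent cells of platelets. Tfrc rose from a median of 201 to 604 CPM (adjusted p = 0.000476), without overlap, and this call was lost on total counts. Mature red cell transcripts did not separate: Hba-a1, an alpha globin gene with a near copy, lay at 758 to 1512 CPM in vehicle mice and at 518 to 6255 CPM in irradiated BIO 300 mice (1.24, SE 0.49, adjusted p = 0.0522). Alas2, the first enzyme of erythroid haem synthesis, had a log2 fold change of 0.76 (SE 0.67) and the anion exchanger gene Slc4a1 of -0.44 (SE 0.42), and both groups overlapped for each. The 4 haemoglobin genes took 8.30% to 12.4% of the counts in vehicle mice and 6.29% to 13.9% in irradiated BIO 300 mice.

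Interferon-stimulated genes, which block virus replication and are also induced by self nucleic acids, rose in 18 of 27 cases and fell in 0, with a median of 1.88 (15 rose on total counts). Ifit3 lay at 3.99, 4.74 and 7.23 CPM in vehicle mice and at 59.3, 193 and 306 CPM in irradiated BIO 300 mice. The groups were separate, with a log2 fold change of 5.14 (SE 0.47, adjusted p = 5.03e-06), but Ifit3 and its near copy Ifit3b can share reads. The interferon regulatory factor Irf7 rose by 2.41 (SE 0.29) from a median of 49.8 to 270 CPM. Isg15, a ubiquitin-like modifier, rose by 1.66 (SE 0.31, adjusted p = 0.000767) with overlap, because mouse 57 lay at 35.2 CPM against a vehicle maximum of 38.5 CPM. The call for Isg15 was lost on total counts and against Day 0 vehicle mice. Oas2, an oligoadenylate synthetase, rose by 3.94 (SE 0.41). Rsad2 (-0.17), Mx1 (0.21), Ifi44 (-0.25) and Gbp3 (0.16) stayed near 0.

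The promoters of 4 of these genes are shown because each rose and each carries the pattern of GAAA, any pair of bases and another GAAA, a repeat of the core letters of the interferon-stimulated response element. The pattern was sought on both strands in the 250 bases before the RefSeq start (GRCm38.p6), overlapping matches are merged, and matches are in capitals, 5′ to 3′ on the strand of the gene. The windows are chr19:34640639-34640888 (plus strand) for Ifit1, chr19:34583279-34583528 (plus strand) for Ifit3, chr4:156200819-156201068 (minus strand) for Isg15 and chr5:120907526-120907775 (minus strand) for Oas1a.
Ifit1: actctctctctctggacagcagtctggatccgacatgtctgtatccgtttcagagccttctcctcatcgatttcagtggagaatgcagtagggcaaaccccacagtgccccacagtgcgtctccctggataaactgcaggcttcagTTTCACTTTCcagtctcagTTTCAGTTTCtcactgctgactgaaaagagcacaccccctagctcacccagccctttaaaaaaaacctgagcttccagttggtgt
Ifit3: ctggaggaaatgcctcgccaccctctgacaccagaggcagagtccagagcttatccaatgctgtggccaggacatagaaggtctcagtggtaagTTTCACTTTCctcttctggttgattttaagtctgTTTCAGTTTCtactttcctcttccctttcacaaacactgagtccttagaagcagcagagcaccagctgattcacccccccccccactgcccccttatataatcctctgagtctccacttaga
Isg15: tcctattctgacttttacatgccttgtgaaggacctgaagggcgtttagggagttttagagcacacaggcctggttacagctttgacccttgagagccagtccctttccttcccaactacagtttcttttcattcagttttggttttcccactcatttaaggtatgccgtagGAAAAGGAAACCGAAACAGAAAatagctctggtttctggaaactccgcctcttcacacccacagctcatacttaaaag
Oas1a: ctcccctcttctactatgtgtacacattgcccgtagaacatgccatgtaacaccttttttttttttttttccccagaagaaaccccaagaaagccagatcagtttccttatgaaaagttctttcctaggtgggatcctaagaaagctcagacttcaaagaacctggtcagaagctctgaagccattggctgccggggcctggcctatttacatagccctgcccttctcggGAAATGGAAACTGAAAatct
In Ifit1 and Ifit3 the capitals read as the opposite strand of the pattern, and in Isg15 and Oas1a as the pattern itself. The pattern was present in 11 of the 20 interferon-stimulated genes that matched a RefSeq promoter (55.0%), in 3.46% of all 27025 genes, in 1 of 23 p53 target genes, in 2 of 16 B cell genes and in 1 of 13 platelet genes. Of the 11 genes with the pattern 7 were DEGs, and so were 7 of the 9 without it. Ifit1 rose by 3.90 and Oas1a by 3.05.

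Toll-like receptors detect microbial products and damaged cells. Of 10 tested 5 rose (Tlr2, Tlr4, Tlr5, Tlr6 and Tlr13) and 2 fell (Tlr1 and Tlr9), with a median of 1.10, and on total counts 3 rose and 3 fell. Tlr4, the receptor for bacterial lipopolysaccharide, lay between 10.0 and 14.2 CPM in vehicle mice and between 25.0 and 70.5 CPM in irradiated BIO 300 mice, and rose by 1.77 (SE 0.23, adjusted p = 4.54e-05) without overlap. Tlr5, the flagellin receptor, rose by 1.98 (SE 0.31), Tlr2 by 1.46 (SE 0.24) and Tlr6 by 1.22 (SE 0.30). The calls for Tlr2 and Tlr6 were lost on total counts, and that for Tlr6 also without mouse 55. The largest fall was that of Tlr9, the DNA sensor of B cells and dendritic cells, at -3.17. Tlr8 had a log2 fold change of 0.97 (SE 0.21). For Tlr3, mouse 57 alone set the sign: its level was 5.18 CPM against a median of 0.346 CPM, and the log2 fold change of 0.46 (adjusted p = 0.605) became -1.17 without it and then passed the test.

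Among 20 cytokine and inflammasome genes 7 rose and 0 fell, with a median of 1.06 (6 rose and 3 fell on total counts). Il1b, the inflammasome-processed interleukin, rose from a median of 41.7 to 277 CPM (adjusted p = 8.08e-05), and its decoy receptor Il1r2 from 2.81 to 32.7 CPM (3.63, SE 0.31), both without overlap. Tgfb1, a growth factor stored in platelets, rose by 1.19 (SE 0.29) with overlap, a call lost on total counts and without mouse 60. Tnf overlapped, with medians of 2.84 and 4.56 CPM and a log2 fold change of 0.40 (SE 0.36, adjusted p = 0.364).

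In the list of S100b, the growth factor receptors, Tgfa and the complement genes C3 and Hc, 0 of 9 genes were DEGs, with a median of 1.86. S100b was near the limit of detection, at 0 to 0.326 CPM in irradiated BIO 300 mice and 0.0231 to 0.289 CPM in vehicle mice (0.03, SE 0.68, adjusted p = 0.978). Egfr rested on the libraries with high Alb, with 91.9 CPM for mouse 57 and 19.2 CPM for mouse 29 beside medians of 0.358 and 0.439 CPM (1.86, SE 1.71, adjusted p = 0.38). C3 reached 1076 CPM in mouse 57 beside a median of 46.8 CPM (2.31, adjusted p = 0.0568), and without mice 29 and 57 its log2 fold change was 1.14 (SE 0.30, adjusted p = 0.00430), whereas without mouse 57 only it was 0.38.

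NRF2 is the transcription factor of the antioxidant response. Of 12 of its target genes 9 rose and 0 fell, with a median of 1.51 (4 rose on total counts). Hmox1, haem oxygenase, lay between 2.70 and 5.10 CPM in vehicle mice and between 7.21 and 18.0 CPM in irradiated BIO 300 mice, without overlap (1.63, SE 0.22, adjusted p = 6.38e-05). Gclm, of glutathione synthesis, rose by 1.58 (SE 0.33), a call lost on total counts. Nqo1 had medians of 3.72 and 6.43 CPM and a log2 fold change of 0.74 (SE 0.31, adjusted p = 0.0672).

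Genistein binds estrogen receptors, and isoflavones can bind the aryl hydrocarbon receptor (AHR). Of 14 genes of these pathways 5 rose (35.7%, Pgr, Greb1, Ncoa1, Cyp1a1 and Cyp1b1) and 0 fell, with a median of 0.71. Over all genes tested 19.6% rose and 16.9% fell. On total counts 2 of the 14 rose, as did 2701 of all 25374 genes. Without mice 29 and 57, 3 rose and 1 fell, with a median of 0.29. The receptor genes Esr1 and Ahr overlapped between groups, with log2 fold changes of 0.15 (SE 0.55) for Esr1 and -0.29 (SE 0.22) for Ahr. The positive value of Esr1 rested on mouse 57, at 11.4 CPM, the next treated mouse being at 2.48 CPM. Medians of Esr1 were 2.59 CPM in vehicle mice and 1.27 CPM in irradiated BIO 300 mice. Esr2, also on the list, was not a DEG. Tiparp, an AHR target, had medians of 16.5 and 17.5 CPM (0.07, SE 0.17). The AHR repressor Ahrr had a log2 fold change of 0.57 (SE 1.00), which became -2.61 without mouse 57. Against the same unirradiated vehicle mice, irradiated mice given no drug also had 5 of 14 genes of this list higher and 0 lower (median 0.62). The drug without TBI gave 3 higher and 1 lower of 12 tested (median -0.41).

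Of 9 glucocorticoid-responsive genes 5 rose and 0 fell, with a median of 1.10 (3 rose on total counts). Fkbp5, a chaperone partner of the glucocorticoid receptor, lay between 7.93 and 11.6 CPM in vehicle mice and between 12.3 and 35.8 CPM in irradiated BIO 300 mice, without overlap (1.10, SE 0.18, adjusted p = 0.000316). The call for Fkbp5 was lost on total counts and without mouse 57. Tsc22d3, known as GILZ, had a log2 fold change of 0.85 (SE 0.19, adjusted p = 0.00303).

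Genes of tissues other than blood were uneven. Of 16 hepatocyte genes 0 were DEGs (median 2.43), and 15090 CPM of their summed level lay in mouse 57, beside a group median of 5.12 CPM. Of 8 adipocyte genes 2 rose (Lpl and Retn, median 1.77), which is 25.0% against 19.6% of all genes tested. Without mice 29 and 57 the log2 fold change was 1.16 for Lpl, no longer a DEG, and 3.11 for Retn. Adipoq, the adipocyte hormone adiponectin, reached 17.8 CPM in mouse 59 and had a median of 0.166 CPM. Of 8 vessel wall genes 6 rose (Cdh5, Kdr, Tie1, Acta2, Cnn1 and Des, median 2.56), and 5 without mice 29 and 57 (median 1.38). Des, the muscle filament gene desmin, reached 206 CPM for mouse 57 while no other treated mouse exceeded 0.489 CPM, and its log2 fold change of 8.37 became 0.64 (adjusted p = 0.634) without mice 29 and 57. Cnn1 rose by 1.36 with all mice and by 1.59 without those 2. Acta2, smooth muscle actin, rose by 2.54 (SE 0.41, adjusted p = 0.000238), and by 1.96 (SE 0.22) without mice 29 and 57. The endothelial genes Kdr and Tie1 rose by 3.63 and 3.23, and by 3.67 and 3.36 without those mice. The endothelial junction gene Cdh5 rose by 2.58 (SE 0.76), and by 1.17 without them, while its call was lost against Day 0 vehicle mice. Of 12 mitochondrially encoded genes 4 rose with all mice (median 0.96), whereas 1 rose and 1 fell without mice 29 and 57 (median 0.13). In mouse 57 these genes took 2.15% of the counts, against at most 0.445% in the other 5 irradiated BIO 300 mice. Of 9 abundant noncoding RNA genes 2 rose (22.2%, Gm15564 and Mir6236) and 1 fell (11.1%, Rmrp), with a median of 0.38. The shares over all genes tested were 19.6% and 16.9%. The noncoding RNA Gm26917 took 5.32% to 8.77% of the counts in vehicle mice and 1.10% to 5.43% in irradiated BIO 300 mice. Its part in the differences was not tested.

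The 6 largest increases among the 2587 DEGs that averaged 10 CPM or more in either group and did not overlap were Myl2 (9.52), Tnnt2 (7.63), Ldb3 (7.37), Smyd1 (6.99), Txlnb (6.62) and Mybpc3 (5.73). These are genes of heart and skeletal muscle, and mouse 57 held 83.3 to 889 CPM of each while the other 5 treated mice stayed at or below 4.70 CPM. Myl2, the ventricular myosin light chain on chromosome 5, had a log2 fold change of 1.77 (SE 0.38) without mice 29 and 57. Under the same rule without those mice the 6 largest increases were the interferon-stimulated genes and their relatives Ifit3b (5.76, SE 0.40), Slfn4 (5.59, SE 0.45), Ifit3 (5.38, SE 0.37), Oasl2 (4.78, SE 0.31), Ifit1bl2 (4.70, SE 0.26) and Oasl1 (4.65, SE 0.29), chosen after the values were seen. Slfn4 (chr11:83175186-83190216, GRCm38), a myeloid gene of the Schlafen family, lay at 26.6, 54.7 and 71.5 CPM in the 6 vehicle mice and at 835, 2171 and 4398 CPM in the 6 irradiated BIO 300 mice. The lowest treated mouse was far above the highest vehicle mouse. The 6 largest decreases with all mice were Ccr6 (-7.05), Ighd (-6.87), Cd8b1 (-5.86), Fcer2a (-5.57), A530030E21Rik (-5.27) and Ciita (-5.26), and the same 6 genes led without mice 29 and 57. Ighd lies at chr12:113406604-113416324 (minus strand). A530030E21Rik, an annotated locus of unknown function on chromosome 16, fell from a median of 11.7 to 0.361 CPM.

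The direct comparison with irradiated vehicle mice asked whether drug and irradiation together differed from irradiation alone. Of 24916 genes tested 0 were DEGs (0%), the smallest adjusted p being 1.00. Before adjustment 688 genes had p below 0.05, where 1245.8 would be reached if no gene differed, and DESeq2 gave 0 DEGs with 307 such genes. Without mouse 57 there were again 0 DEGs, but 2741 genes had an unadjusted p below 0.05 and the smallest adjusted p was 0.43. Without mice 49, 51 and 57, which had Alb above 100 CPM, there were also 0 DEGs. The groups did not overlap for 19 genes (0.0763%). The 95% interval of the log2 fold change lay within -1 and 1 for 4754 of the 7127 genes that averaged 10 CPM or more in either group, and the median distance from the estimate to either end of that interval was 0.61. These widths are not a limit of detection. A call also needed an adjusted p below 0.05 and a log2 fold change above 1 in either direction. Differences larger than the widths could therefore also go uncalled with 6 mice per group.

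Values of the members are therefore given with their 95% intervals. Cdkn1a had medians of 26.6 CPM with BIO 300 and 25.5 CPM with vehicle among irradiated mice, a log2 fold change of -0.11 (95% interval -0.93 to 0.71). Mdm2 differed by 0.04 (-0.23 to 0.31), Trp53 by 0.04 (-0.33 to 0.40) and Phlda3 by 0.47 (-0.06 to 0.99). Among lymphocyte genes Ighd differed by -0.73 (-1.46 to -0.00035), Pax5 by -0.80 (-1.39 to -0.22), Cd3e by 0.40 (-0.49 to 1.28) and Gzma by 0.79 (-0.19 to 1.77). The intervals of Pax5 and, narrowly, Ighd excluded 0, but both adjusted p over all genes were 1.00. Ifit3 differed by -0.11 (-1.31 to 1.09), Csf3r by -0.32 (-1.23 to 0.60), Itga2b by 0.61 (-0.42 to 1.65), Tlr4 by -0.34 (-0.91 to 0.24), Il1b by -0.48 (-1.38 to 0.43) and Hmox1 by -0.53 (-1.27 to 0.22). S100b differed by -2.03 (-4.08 to 0.01) at levels of at most 1.43 CPM, and Egfr by -1.98 (-6.52 to 2.56). Medians with BIO 300 and with vehicle lay close together, at 0.116 and 0.141 CPM for S100b and 0.358 and 0.445 CPM for Egfr. The highest Egfr level was 91.9 CPM with BIO 300 and 304 CPM with vehicle. Alb exceeded 100 CPM in mouse 57 of the BIO 300 group and in mice 49 and 51 of the vehicle group. Why the estimates for S100b and Egfr were negative was not tested. In each of the 24 lists 0 members were DEGs. Median log2 fold changes were 0.01 for p53 target genes, -0.50 for B cell genes, 0.33 for T cell genes, 0.72 for NK cell genes, -0.32 for neutrophil genes, 0.49 for platelet genes, -0.18 for interferon-stimulated genes and -0.28 for toll-like receptor genes, against -0.07 for all tested genes. The list medians furthest from 0 were those of the list with S100b (-2.11), hepatocyte genes (-1.58) and adipocyte genes (-0.80). All these values include mice 49, 51 and 57. Mouse 51 was lowest of its group for T cell (2.09), NK cell (1.33) and platelet genes (7.97), in mean log2(CPM + 1). In the BIO 300 group mouse 57 was lowest for the same lists (2.48, 1.71 and 8.58). Without mice 49, 51 and 57 the sign turned for 17 named genes, and leaving out 1 mouse turned a sign 65 times.

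**Figure D4:**
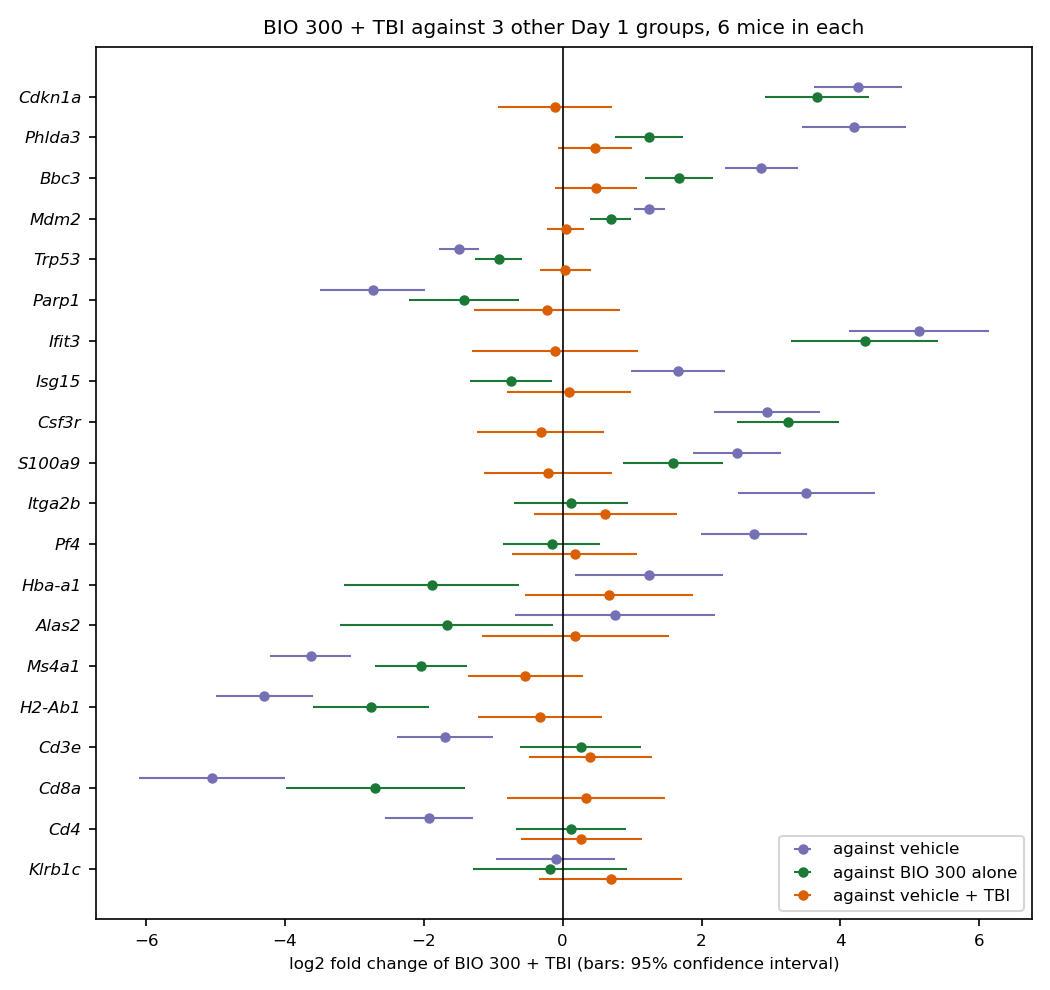
Log2 fold change of the irradiated BIO 300 mice for 20 genes, each against vehicle, BIO 300 alone and vehicle with TBI, with 95% confidence intervals from edgeR fits of 6 against 6 mice. Intervals against irradiated vehicle mice include 0 for all genes shown, while Cdkn1a, Ifit3 and Csf3r were higher and Ms4a1, H2-Ab1 and Cd8a lower against both unirradiated groups.

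Compared with BIO 300 alone, which shares the drug and the day, 4873 of 23610 genes were DEGs (20.6%), 3521 higher (14.9%) and 1352 lower (5.73%), and the groups did not overlap for 4035 genes (17.1%). The median log2 fold change was 0.41 and became 1.31 on total counts, where 9100 genes were higher and 223 lower. Without mice 43 and 57, which had Alb above 100 CPM, 3873 were higher and 1767 lower. TMM factors were 0.478 to 0.775 in the BIO 300 mice without TBI, so directions are given on both scales. Of 30 p53 target genes 19 rose and 0 fell (median 1.62, and 24 rose on total counts). Cdkn1a lay between 1.04 and 2.84 CPM with BIO 300 alone, below every irradiated BIO 300 mouse (3.67, SE 0.35, adjusted p = 3.1e-05). Phlda3 was already at 11.9 to 17.1 CPM with BIO 300 alone and rose by 1.24 (SE 0.23). Interferon-stimulated genes rose in 18 of 27 cases and fell in 1 (Rsad2, -2.38), with a median of 1.48 (22 rose and 1 fell on total counts). Ifit3 differed by 4.35 (SE 0.49) and Oas2 by 5.50 (SE 0.55), whereas Isg15 stood at 105 to 166 CPM with BIO 300 alone and differed by -0.75 (adjusted p = 0.06).

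Neutrophil genes were higher than with BIO 300 alone in 12 of 20 cases and lower in 0 (median 1.95, 13 on total counts), Csf3r by 3.24 (SE 0.34) and Mmp9 by 3.06 (SE 0.30). Toll-like receptor genes rose in 6 of 10 cases (median 2.24, 8 on total counts), among them Tlr4 by 2.65 (SE 0.28) and Tlr6 by 2.87 (SE 0.35). B cell genes fell in 20 of 22 cases (median -2.41, 12 on total counts) and MHC class II genes in 10 of 10 (median -2.64, 8 on total counts). Ighd lay between 39.5 and 134 CPM with BIO 300 alone, all above the irradiated BIO 300 mice (-4.91, SE 0.33, adjusted p = 1.56e-05). Of 22 T cell genes 2 fell (Cd8a and Cd8b1), with a median of -0.24 that became 0.46 on total counts, while Cd3e differed by 0.26 (SE 0.41) and Cd4 by 0.12 (SE 0.37). Platelet genes were DEGs in 0 of 16 cases (median -0.00, with 3 higher on total counts), with Itga2b at 0.12 (SE 0.38).

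Red cell and cell cycle genes were lower than with BIO 300 alone on the TMM scale. Of 26 red cell genes 18 fell (median -1.37), against 8 lower and 1 higher on total counts (median -0.53). Slc4a1 lay between 2747 and 5388 CPM with BIO 300 alone and between 520 and 1598 CPM with BIO 300 and TBI (-2.15, SE 0.36, adjusted p = 0.000818). Of 24 cell cycle genes 15 fell (median -1.11), but 0 fell on total counts. Top2a, the topoisomerase of dividing cells, differed by -1.53 (SE 0.25). Of 28 DNA repair genes 4 fell with TMM, and on total counts 4 rose and 0 fell. NRF2 target genes were split, with 2 higher (Hmox1 and Slc7a11) and 2 lower (Nqo1 and Ftl1). Of 9 glucocorticoid-responsive genes 7 rose (9 on total counts). The remaining lists were smaller, with 5 higher and 2 lower of 18 BCL2 family genes, 6 and 1 of 20 cytokine genes, 1 and 3 of 16 monocyte genes, 4 and 0 of 14 estrogen receptor and AHR genes, and 0 of 17 NK cell genes. Of the lists of other tissues and RNA classes, 2 of 8 vessel wall genes (Acta2 and Des), 1 of 8 adipocyte genes and 0 of 16 hepatocyte genes rose, 3 noncoding RNA genes rose and 2 fell, and 1 of 12 mitochondrially encoded genes fell. Over all genes tested in this comparison 14.9% were higher and 5.73% lower. Without mice 43 and 57, 9 of 10 mitochondrially encoded genes fell, 5 of 9 glucocorticoid-responsive genes rose, and Des had a log2 fold change of 2.78 (adjusted p = 0.103) in place of 8.40, while Acta2 rose by 1.13. In the list with S100b, Fgfr1 (4.25) and C3 (2.99) rose. Without mouse 57 Fgfr1 rose by 1.90 and the call for C3 was lost (1.05, adjusted p = 0.102). Without mice 43 and 57 both rose, Fgfr1 by 1.71 and C3 by 1.59. Under the limits on level and overlap used above, the 3 largest increases were Slfn4 (7.67, SE 0.72), Gm44292 (5.93, SE 0.61) and Oas2, and the 3 largest decreases were Ighd, Tnfrsf13c (-3.77, SE 0.32) and Cd8b1 (-3.60, SE 0.58).

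The irradiated vehicle mice and the BIO 300 mice without TBI were each also set against the same 6 vehicle mice, so the 3 sets of fold changes share those controls and are only placed side by side. Irradiated vehicle mice had 9042 DEGs of 25146 genes (36%), 4920 higher (19.6%) and 4122 lower (16.4%), with no overlap for 6281 (25%). The BIO 300 mice without TBI had 11241 of 23513 (47.8%), 4073 higher (17.3%) and 7168 lower (30.5%), with no overlap between groups for 10760 (45.8%). The p53 target genes higher against vehicle numbered 20 with BIO 300 and TBI (median 1.51), 21 with TBI (1.58) and 5 with BIO 300 (0.19). For Cdkn1a the log2 fold changes were 4.25, 4.31 and 0.64 in that order. Neutrophil genes gave 13, 14 and 1 higher, interferon-stimulated genes 18, 19 and 8, and toll-like receptor genes 5, 6 and 0. B cell medians were -4.07, -3.54 and -1.69, T cell medians -1.93, -2.32 and -1.89, and NK cell medians -0.30, -1.16 and 0.11. NK cell genes lower numbered 3, 10 and 0 of 17. In the direct comparison with irradiated vehicle mice the B, T and NK cell lists held 0 DEGs. MHC class II medians were -4.27, -3.98 and -1.42. Platelet genes were all higher in each (medians 3.16, 2.59 and 3.19). Red cell genes higher against vehicle numbered 8, 6 and 26 (medians 0.84, 0.36 and 2.01), cell cycle genes 8, 5 and 18, and NRF2 target genes 9, 9 and 8.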

How the data were processed

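Whole blood of 24 Day 1 mice in 4 groups of 6 was analysed, with 6 Vehicle Day0 mice as an alternative control. The authors trimmed reads with Trimmomatic 0.36, aligned them with STAR 2.5.2b to GRCm38 and deposited raw counts of uniquely assigned reads per gene from Subread 1.5.2. The annotation release is not given in the sources used here. The sources differ on library preparation (a stranded total RNA kit removing rRNA and globin transcripts in the methods, polyA selection in the labels), which bears on the globin and noncoding genes. The deposited tables also hold the authors' normalized values, fold changes and p-values from DESeq2, which were not used.

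Count tables of 49315 genes were joined by gene ID, after 18 of 18 columns repeated between tables proved identical. Symbols (48970 IDs) and coordinates came from GENCODE M21 on GRCm38. Genes with at least 10 counts summed over the mice of a comparison were tested with edgeR 4.0.16 (TMM, quasi-likelihood, 6 against 6, R 4.3.3), two-sided, with Benjamini-Hochberg adjustment over all genes tested. SE is the absolute log2 fold change divided by the square root of F. The code was tested on simulated data. Mice are separate animals, but cage, litter and sequencing run are not given per mouse. Total counts per mouse were 18332440 to 38551640 over the 24 mice, so that 1 count equals a small fraction of 1 CPM. Intervals are 95% intervals of the fits. Near copies of a gene can share reads, and their values are uncertain.

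The members and lists were chosen with earlier results of these data known. The genes named were those marked in each list, the 6 largest increases and 6 largest decreases against vehicle among DEGs averaging 10 CPM or more without overlap, and the 3 largest in each direction of the other comparisons. Alternatives were RLE factors, total counts, DESeq2 1.42.0, other count filters, a fit of all 4 groups, Day 0 vehicle mice as control, leaving out each mouse, and leaving out mice with Alb above 100 CPM. The heart gene list and the largest changes without those mice were added after seeing the data. Some list members counted in the totals are not reported by name here.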

Additional observations from a re-analysis of the deposited data

Results flagged for a closer look

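A sample was singled out when its distance to the nearest other mouse of its group of 6, divided by the range of the group, passed the 95% critical value of Dixon's test. Of 282 groups of values tested 53 held such a sample, where chance gives about 1 in 20 (14.1), and 38 of the 53 were mouse 57 of the irradiated BIO 300 group. These counts include Myl2, Tnnt2, Ldb3, Smyd1, Txlnb and Mybpc3. Those genes were named for increases that rested on mouse 57, so their flags followed from that choice and cannot be set against chance. The 282 groups were also not separate, since the level of a list, its share of counts and its named genes could each be tested. The same library could therefore be flagged many times, and the excess over 14.1 is no measure of how many libraries stood apart.

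Mouse 57 stood apart in the mean log2(CPM + 1) of hepatocyte genes (9.23), vessel wall genes (3.93), mitochondrially encoded genes (6.00), the list of S100b and growth factor receptors (4.53), estrogen receptor and AHR genes (2.88) and MHC class II genes (3.71), all high, and of T cell genes (2.48) and BCL2 family genes (3.46), both low. Its counts fell to 2.15% on mitochondrially encoded genes and to 2.01% on hepatocyte genes. In CPM it was high for Myl2 (889), Tnnt2 (548), Mybpc3 (442), Ldb3 (140.1), Txlnb (117.5) and Smyd1 (83.3), and for C3 (1076), Egfr (91.9), Tgfa (4.96), Cdh5 (21.3), Acta2 (43.4) and mt-Co1 (8117). It was also high for Cdkn1a (62.2), Ccng1 (419), Eda2r (10.7), Parp1 (19.2), H2-Ab1 (41.1), Cd74 (154), Tlr3 (5.18), Esr1 (11.4), Ahr (16.4) and Ahrr (1.48). It was low for Trp53inp1 (259.9), Bcl2 (29.1), Bcl2l11 (31.4), Cd4 (3.81), Isg15 (35.2) and Tnf (1.25). Of the same group, mouse 56 was high for Aen (32.6 CPM) and mouse 59 for Adipoq (17.8 CPM).

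Among vehicle mice, mouse 29 was high for hepatocyte genes (mean log2(CPM + 1) of 6.53 and 0.358% of counts), for the list of S100b and growth factor receptors (2.49), for Egfr (19.2 CPM) and for Tgfa (1.12 CPM). Vehicle mouse 25 was high for Eda2r (0.314 CPM), Klrb1c (6.94 CPM), Ly6c2 (34.2 CPM) and Hba-a1 (1512 CPM). Vehicle mouse 30 had the highest total count of its group (32949547), the lowest share of counts on abundant noncoding RNA genes (7.83%), a low Tlr3 (0.674 CPM) and a high Acta2 (3.73 CPM). The cause of these values was not tested.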

How the results depend on the processing

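Against vehicle, the count of 9277 DEGs became 9153 with RLE factors, 8350 with DESeq2, 9005 with no count filter, 8533 in the fit of 4 groups and 7117 (4113 higher, 3004 lower) with Day 0 vehicle mice. Total counts gave 2701 higher and 7019 lower, and edgeR's filterByExpr gave 6444 DEGs of which 2852 were lower. With RLE factors 60.2% of the calls were higher, against 53.7% with TMM. Leaving out 1 mouse gave 8183 to 10336 DEGs, 4286 to 5168 higher and 3897 to 5612 lower. Against irradiated vehicle mice every alternative gave 0 DEGs, 0 to 0 on leaving out 1 mouse. Against BIO 300 alone, 4873 DEGs became 9323 on total counts (9100 higher, 223 lower), 2215 were higher with filterByExpr and 5840 in the fit of 4 groups, and leaving out 1 mouse gave 3972 to 5158 DEGs, 2815 to 4021 higher and 865 (without mouse 47) to 1479 lower. The cause was not tested.

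Among named genes called in either of the fits compared, the sign turned for Tlr3 (0.46 to -1.17 without mouse 57 and -1.14 without mice 29 and 57, range to 0.68 over single mice) and Ahrr (0.57 to -2.61 and -2.69, range to 0.81) against vehicle. Against BIO 300 alone it turned for Tnnt2 (4.93 to -0.12 without mouse 57 and -0.30 without mice with Alb above 100 CPM, range to 5.43) and Adipoq (0.93 to -3.13 without mouse 59, range to 1.47). Named genes called in neither fit changed sign as well. Against vehicle this happened 13 times on leaving out 1 mouse, 6 times on total counts and 9 times with Day 0 vehicle mice. Against BIO 300 alone it happened 30 times on leaving out 1 mouse and 18 times on total counts. Of the 109 named genes, 11 lost their call against vehicle on total counts: Mdm2, Bax, Bcl2l11, Mki67, Tfrc, Isg15, Tlr2, Tlr6, Tgfb1, Gclm and Fkbp5. CPM on total counts in place of TMM moved the group median by more than 1 SD for 98 of 109 named genes in vehicle mice and for 1 of 109 in irradiated BIO 300 mice. No paired analysis was possible because animal numbers do not recur between groups and the labels give no litter, cage or run. Genes under about 1 CPM rest on few reads.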
